A study of Homo sapiens with 12 samples.

Results

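The genes described here are 35 redox genes, chosen by symbol to cover glutathione synthesis and breakdown, transsulfuration, the thioredoxin and peroxiredoxin system, NADPH supply, iron storage and the regulation of the transcription factor NRF2. All 35 have a row among the 20015 genes of the deposited table of read counts, and 33 of them passed the filter on low counts that left 11323 genes for testing. No measured value enters that rule, but the symbols were listed with earlier results of these data known.

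The libraries come from HT29, an established line of human colorectal adenocarcinoma cells, grown in serum-containing medium and expressing the Cas9 nuclease in every group. Lentivirus delivered a non-targeting guide RNA (called WT) or a guide against QRICH1 (called QRICH1 KO), and each genotype received the solvent DMSO or 0.3 µg/ml tunicamycin (Tm) for 14 h. Whether the edited cells were a pool or 1 clone is not given in the sources used here. Tunicamycin stops the attachment of N-linked glycans and thereby stresses protein folding in the endoplasmic reticulum (ER), and the series asks what QRICH1 contributes to the response to that stress. Each of the 4 combinations of genotype and treatment has 3 libraries, described by the submitters as biological replicates.

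Glutathione is a tripeptide of glutamate, cysteine and glycine that serves as the main soluble thiol of the cell. Its supply depends on cysteine, which enters as cystine or is made from methionine by transsulfuration, and its recycling depends on NADPH, as does that of thioredoxin. NRF2, encoded by NFE2L2, is held low by the ubiquitin ligase adaptor KEAP1 and, once released, activates genes through antioxidant response elements in their promoters. Under ER stress a second factor, ATF4, activates genes of amino acid supply through C/EBP-ATF response elements, so that some redox genes can be reached by either route.

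Total counts ran from 6856736 to 17861844 per library, and a gene with no count may still have had up to 3 counts, or 0.17 to 0.456 counts per 1000000 (CPM). Counts were found for 13124 to 14094 genes in 10 libraries, for 15340 in library 3 of QRICH1 KO DMSO and for 14813 in library 3 of QRICH1 KO Tm. QRICH1 itself stood at 22.7 to 35 CPM in the WT libraries and 19.2 to 26.8 CPM in the QRICH1 KO libraries, and its genotype difference was not called (log2 fold change -0.31 under DMSO and -0.36 under Tm, edgeR adjusted p = 0.577 and 0.352). Transcript level therefore does not check the genotype labels. HSPA5, the ER chaperone BiP, rose 25.8-fold with Tm in WT and 14.6-fold in QRICH1 KO. Of 12 markers of colorectal epithelium 11 passed the filter, led by KRT8 at 34074 to 59636 CPM, whereas CDX1 had 1 count in all libraries together. CDX2, at 0.226 to 1.44 CPM, and CEACAM5, at 0.585 to 2.84 CPM, passed but were also low. Of 22 markers of other cell types 5 passed, with CD3E at 0 in every library, and apart from LYZ, at 1832 to 2651 CPM, none exceeded 3.35 CPM. The sum of that list, nearly all of it LYZ, was 2305 to 2613 CPM in WT DMSO, 1838 to 1931 in WT Tm, 2032 to 2659 in QRICH1 KO DMSO and 2092 to 2363 in QRICH1 KO Tm. It therefore follows the level of 1 gene and does not measure a share of other cells, and its part in the results below was not tested.

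In unstressed WT cells the members covered a wide range of levels. Expressed as CPM per kilobase of the principal transcript, FTL, the light chain of the iron store ferritin, stood highest at 15772 ± 2139 (SD, n = 3) and alone gave 56.5% of the members' counts. The pi-class glutathione transferase GSTP1 followed at 1844 ± 121.6, then the peroxiredoxin PRDX1 at 876.2 ± 25.8 and the gut glutathione peroxidase GPX2 at 687.7 ± 30.6. TALDO1 of the pentose phosphate pathway (591.7 ± 111 per kilobase) and the ferritin heavy chain FTH1 (579.5 ± 183.5) came next and did not differ beyond their spread. The lowest tested members were GCLC at 3.01 ± 0.203 and GCLM at 2.13 ± 1.36, the catalytic and modifier subunits of the enzyme that starts glutathione synthesis, SOD2 at 1.4 ± 0.133, CTH at 1.04 ± 0.283 and CHAC1 at 1.03 ± 0.297. GCLM overlapped GCLC and SOD2, and CTH and CHAC1 did not differ beyond their spread. The low place of SOD2 is per kilobase of a principal transcript of 14266 bases. Its share of the members' counts (0.0812%) was above that of GCLC (0.0468%) and HMOX1 (0.0353%). The level of SOD2 is uncertain, because 845 of its exonic bases overlap a second SOD2 ID on the same strand, with 0 to 3 counts per library. A further overlap of 298 bases is with WTAP on the opposite strand, which had 314 to 846 counts. CBS, the first enzyme of transsulfuration, had 0 to 2 counts per library, and SRXN1, sulfiredoxin, had 0 to 1. Both values are uncertain: CBS shares its sequence with a near-identical copy on the same chromosome, CBSL, which was not analysed here, and exons of SRXN1 overlap another gene on the same strand. FTL has 16 pseudogenes named after it and FTH1 has 25, and how reads that map to several places were counted is not given in the sources used here.

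Promoter sequence was available for 26 of the 35 members, as RefSeq windows from 250 bases before to 50 bases after the start of each gene (GRCh38.p14). The antioxidant response element core was searched as TGACNNNGC and the C/EBP-ATF response element core as TGATGNAA, on both strands. The first was present in 8 of the 26 windows (30.8%), against 15.3% of the 9263 tested genes with a window and 13.6% of all 27305 windows. The second was in 1 window (3.85%), against 1.63% of tested genes and 3.67% of all windows, and no member held both. SLC3A2, a gene outside the members, did hold both, with its C/EBP-ATF core after the start site. The stretches below are shown because these genes carry the contrasts that follow: CHAC1, the member with the highest fold change, the members with an antioxidant core that did or did not change with Tm, and, outside the list, the cystine transport gene SLC3A2, whose antioxidant core alone is shown. Each is written 5′ to 3′ along the gene's strand, with the matched core in capitals. A core written as GC...TCA or TT...ATCA is the match on the opposite strand.
CHAC1 (chr15:40953237-40953294, + strand): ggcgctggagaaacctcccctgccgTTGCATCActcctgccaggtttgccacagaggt
TXNRD1 (chr12:104215655-104215713, + strand): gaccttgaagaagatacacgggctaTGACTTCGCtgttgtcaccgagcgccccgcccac
ME1 (chr6:83431155-83431213, - strand): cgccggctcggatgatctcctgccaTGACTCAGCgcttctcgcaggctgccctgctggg
GCLM (chr1:93909431-93909489, - strand): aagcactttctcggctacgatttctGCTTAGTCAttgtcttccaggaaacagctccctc
GPX2 (chr14:64942834-64942892, - strand): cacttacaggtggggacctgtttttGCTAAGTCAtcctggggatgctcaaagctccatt
GSTP1 (chr11:67583721-67583779, + strand): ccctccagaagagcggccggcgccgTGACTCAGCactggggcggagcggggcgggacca
SLC3A2 (chr11:62881637-62881695, + strand): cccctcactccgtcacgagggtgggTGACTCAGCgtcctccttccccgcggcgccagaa

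Counted from the RefSeq start site, the match shown begins at -209 in CHAC1, -99 in TXNRD1, -137 in ME1, -34 in GCLM, -122 in GPX2, -66 in GSTP1 and -37 in SLC3A2, whose second core, for C/EBP-ATF on the opposite strand, begins at 37. These starts differ from the ends of the gene spans, which are from GENCODE release 29. The stretches of CHAC1, GSTP1 and GPX2 lie inside those spans, and that of GCLM lies partly inside. TXNRD1 and ME1 each hold a further antioxidant core on the opposite strand, not shown, which begins at -8 and at 11. The other members with an antioxidant core were GSTO1, PGD and CBS. Sequence outside these windows was not searched, nor were the members without a window, so a gene not named here may still hold such an element. A match describes letters in the window and is no evidence of binding.

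The first comparison asked how tunicamycin changed these genes in WT cells. Of the 33 tested members 8 rose, 5 fell and 20 were not called at an edgeR adjusted p under 0.05, so that 39.4% were called against 23.8% of all 11323 genes. The members that rose (24.2%, against 12.6% of all genes) were CHAC1, CTH, GCLC, TXNRD1, ME1, FTL, PRDX5 and TXN. Those that fell (15.2%, against 11.1%) were HMOX1, CAT, KEAP1, GPX2 and PRDX1. The median log2 fold change of the members was -0.035, beside -0.024 over all genes tested. Tm and DMSO libraries did not overlap for 18 members (54.5%), 9 in each direction, against 37.5% of all genes. In bulk RNA a lower level per cell and a smaller share of cells that express a gene cannot be told apart.

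The largest changes were in cysteine supply and glutathione breakdown. CHAC1 (chr15:40952962-40956519) encodes an enzyme that cleaves glutathione into oxoproline and cysteinyl-glycine. It had 2.04, 1.64 and 1.12 CPM in WT DMSO, against 42.4, 45.7 and 31 CPM in WT Tm. Every Tm library lay far above every DMSO library, a 25.6-fold rise (log2 fold change 4.68, SE 0.309, edgeR adjusted p = 1.77e-09). CTH (chr1:70411218-70439851), which releases cysteine from cystathionine at the end of transsulfuration, stood at 1.36, 1.89 and 2.38 CPM under DMSO and at 15.8, 19.3 and 18.2 CPM under Tm. The groups did not overlap and the rise was 9.14-fold (log2 3.19, SE 0.248, adjusted p = 1.76e-08). GGCT, which handles gamma-glutamyl dipeptides, was at 81.8 ± 6.97 CPM under DMSO and 67.9 ± 2.81 CPM under Tm (SD, n = 3) and was not called (edgeR adjusted p = 0.0814).

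Among the 4 genes of glutathione synthesis and recycling only GCLC was called. GCLC (chr6:53497341-53616970), the catalytic subunit of glutamate-cysteine ligase, went from 11.2, 10.9 and 12.4 CPM in WT DMSO to 30.6, 23 and 29.3 CPM in WT Tm, a 2.4-fold rise (log2 1.26, SE 0.174, edgeR adjusted p = 2.69e-05). All Tm libraries were above all DMSO libraries. Its partner GCLM, whose promoter core is shown above, had 5.44, 7.79 and 17.9 CPM under DMSO and 9.49, 8.78 and 14.3 CPM under Tm. These groups overlapped throughout, with a log2 fold change of 0.01 (adjusted p = 0.994). GCLM was the most variable member, with a coefficient of variation of 63.6% over the WT DMSO libraries, while the median member varied by 9.55% there and the median gene by 14.8%. Glutathione synthetase GSS (log2 fold change -0.17) and glutathione reductase GSR (-0.40, adjusted p = 0.0735) were not called.

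The 5 peroxidases and transferases all had negative log2 fold changes, between -0.40 and -0.03, and GPX2 was called. GPX2 stood at 675.9, 653.4 and 713.2 CPM in WT DMSO and 511.4, 579.4 and 458.1 CPM in WT Tm, groups that did not overlap, and fell 1.32-fold (log2 -0.40, edgeR adjusted p = 0.0103). GPX4, which reduces lipid peroxides, GSTP1, GSTO1 and the microsomal transferase MGST1 were not called, with GSTP1 at 1772 ± 116.9 CPM under DMSO and 1658 ± 291.1 CPM under Tm (SD, n = 3).

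In the thioredoxin system both the carrier and its reductase rose. TXNRD1 (chr12:104215779-104350305), the cytosolic thioredoxin reductase, was at 461, 504.5 and 528.6 CPM in WT DMSO and at 869, 734.4 and 816.7 CPM in WT Tm. This was a 1.62-fold rise without overlap (log2 0.70, SE 0.122, edgeR adjusted p = 0.000349). Thioredoxin itself, TXN, had 294.7, 282.6 and 327 CPM against 362.6, 453.5 and 385.7 CPM (log2 0.41, adjusted p = 0.0162). The peroxiredoxins, which reduce peroxides, most of them with electrons from thioredoxin, did not move as a group. PRDX5 rose (68.1 ± 3.25 to 93.1 ± 16.4 CPM, edgeR adjusted p = 0.0259) and PRDX1 fell (1081 ± 31.8 to 842 ± 71 CPM, adjusted p = 0.0248). PRDX2, PRDX3 and PRDX6 were not called, with log2 fold changes of -0.23, -0.25 and 0.33. The mitochondrial thioredoxin TXN2 was at 59.9 ± 1.34 and 60.9 ± 6.33 CPM.

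Of the 4 members grouped under NADPH supply, malic enzyme ME1 was the one called. It had 69.5, 75.2 and 79.3 CPM in WT DMSO and 108.3, 110.7 and 113.9 CPM in WT Tm, a 1.48-fold rise between groups that lay well apart (log2 0.57, SE 0.0988, edgeR adjusted p = 0.000323). The pentose phosphate enzymes PGD, TALDO1 and TKT had log2 fold changes of -0.12, -0.02 and -0.23 and were not called.

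Members that detoxify quinones and haem and store iron went in different directions. HMOX1 (chr22:35380361-35394214), haem oxygenase 1 and a classical NRF2 target, had 8.44, 7.37 and 10.2 CPM in WT DMSO and 4.12, 5.45 and 4.41 CPM in WT Tm. It fell 1.85-fold with no overlap between the groups (log2 -0.89, SE 0.244, edgeR adjusted p = 0.0124). FTL (chr19:48965301-48966878) had 15969, 13181 and 12394 CPM under DMSO and 16634, 24406 and 19408 CPM under Tm, and rose 1.46-fold (log2 0.54, SE 0.166, adjusted p = 0.0232), although the highest DMSO and the lowest Tm library lay close together. The quinone reductase NQO1, another classical target, had 1112, 814.6 and 842.6 CPM against 1043, 1368 and 1191 CPM. These ranges overlapped and NQO1 was not called (log2 0.38, adjusted p = 0.0599), but 5 of 11 alternatives called it, among them DESeq2 (0.0451), the fit without WT DMSO library 1 (0.0116) and that without WT Tm library 1 (0.0315). FTH1, at 592.6, 972.4 and 571.7 CPM against 781.8, 910.5 and 724.7 CPM, overlapped as well.

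Catalase, CAT (chr11:34438925-34472062), which breaks down hydrogen peroxide in peroxisomes, fell from 104.2, 92.2 and 87.7 CPM in WT DMSO to 61.1, 59 and 51.2 CPM in WT Tm. The groups stood well apart, a 1.65-fold fall (log2 -0.72, SE 0.116, edgeR adjusted p = 0.000142). The superoxide dismutases SOD1 (log2 -0.12) and SOD2 (log2 0.21) were not called. Of the regulators, NFE2L2 had 106.1, 102.4 and 104.7 CPM under DMSO and 114.3, 126.9 and 134.5 CPM under Tm, and was not called although the groups did not overlap (log2 0.26, adjusted p = 0.103). KEAP1 went from 98.9, 82.5 and 79.2 CPM to 64, 66.2 and 59 CPM, a 1.37-fold fall without overlap (log2 -0.46, adjusted p = 0.00739).

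**Figure D1:**
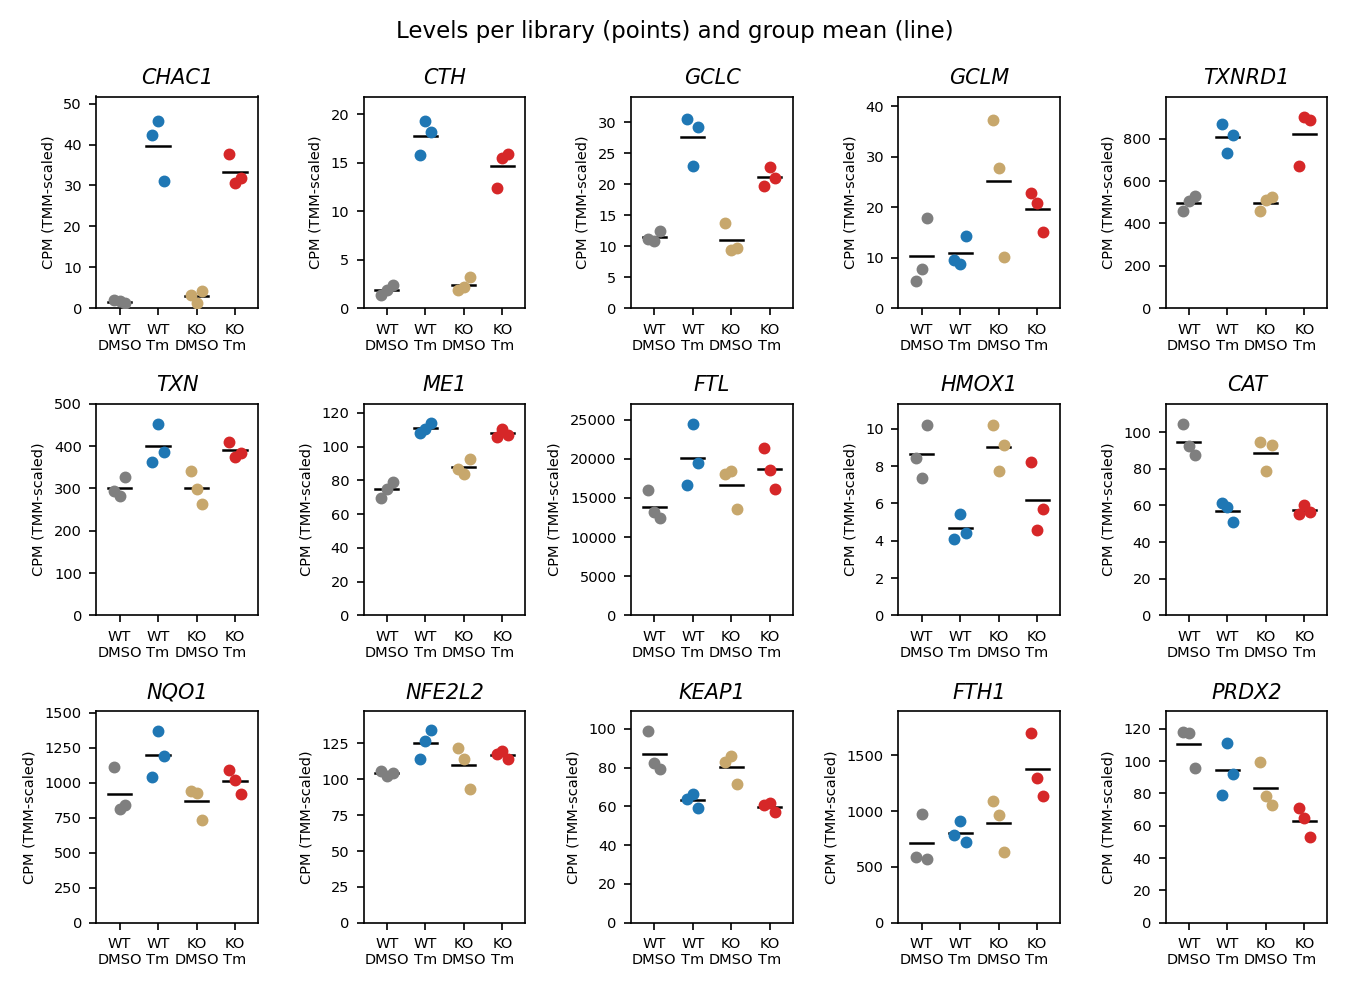
TMM-scaled CPM (vertical axes, linear) of 15 members in the 12 libraries, 1 point per library and a line at each group mean, with KO standing for QRICH1 KO. CHAC1, CTH and GCLC are higher in all Tm libraries than in all DMSO libraries of both genotypes, CAT is lower, and GCLM spreads from 5.44 to 17.9 CPM in WT DMSO.

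In QRICH1 KO cells the tunicamycin response was called for fewer members. Of the 33, 6 rose (18.2%, against 9.09% of all genes) and 2 fell (6.06%, against 6.53%), so that 24.2% were called against 15.6%. The risers were CHAC1, CTH, GCLC, TXNRD1, TXN and ME1, and CAT and KEAP1 fell. The median log2 fold change was -0.008, beside -0.004 over all genes. Libraries did not overlap for 13 members (39.4%), against 32.4% of all genes. Without the QRICH1 KO libraries numbered 3, which had counts for more genes than the rest, 4 members rose and 2 fell, with TXN (edgeR adjusted p = 0.205) and ME1 (0.0937) no longer called. Calls over all genes also went down in that fit, from 1768 to 1228.

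CHAC1 stood at 3.17, 1.32 and 4.25 CPM in QRICH1 KO DMSO and at 37.7, 30.6 and 31.7 CPM in QRICH1 KO Tm, an 11.3-fold rise (log2 3.50, edgeR adjusted p = 3.06e-08). CTH rose 6.05-fold, from 1.81, 2.22 and 3.19 CPM to 12.4, 15.5 and 15.9 CPM (log2 2.60, adjusted p = 2.08e-07). GCLC rose 1.93-fold, from 13.7, 9.36 and 9.76 CPM to 19.8, 22.8 and 21 CPM (adjusted p = 0.000829). None of the 3 overlapped between treatments, and all 3 encode steps that make or use cysteine and glutathione.

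TXNRD1 rose 1.65-fold in QRICH1 KO, from 459.7, 510.1 and 522.6 CPM to 671.6, 903.7 and 888.1 CPM (edgeR adjusted p = 0.000417). ME1 went from 86.9, 83.7 and 92.5 CPM to 105.9, 110.4 and 107.2 CPM (log2 0.30, adjusted p = 0.046), and TXN from 301.1 ± 40 to 390.2 ± 18.7 CPM (SD, n = 3, adjusted p = 0.038). The last 2 calls sat near the threshold, and 9 of the 12 alternative settings that bear on it lost ME1 and 6 of 12 lost TXN. CAT fell 1.55-fold, from 94.5, 78.5 and 93 CPM to 55.1, 60.1 and 56.5 CPM (adjusted p = 0.000878), and KEAP1 fell 1.34-fold, from 83, 86.2 and 71.4 CPM to 60.6, 61.6 and 57.2 CPM (adjusted p = 0.0176).

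HMOX1, NQO1, NFE2L2, GCLM, FTL and FTH1 were not called in QRICH1 KO. HMOX1 had 10.2, 7.76 and 9.13 CPM under DMSO and 8.25, 4.57 and 5.73 CPM under Tm, with overlap (log2 -0.53, edgeR adjusted p = 0.134). NQO1 had 943.6, 928.2 and 730.6 CPM against 1090, 1017 and 921.6 CPM, and NFE2L2 had 121.9, 114.4 and 92.9 CPM against 117.3, 119.5 and 114.4 CPM, both with overlap. GCLM had 37.2, 27.8 and 10.2 CPM under DMSO and 22.8, 20.8 and 15 CPM under Tm, again overlapping. FTL was at 18101, 18405 and 13541 CPM against 21307, 18603 and 16197 CPM, and FTH1 at 1087, 963.4 and 634.8 CPM against 1699, 1297 and 1137 CPM, where the Tm libraries were all higher but the difference missed the threshold (log2 0.62, adjusted p = 0.0512). For FTH1 6 of 12 alternatives did call the rise, with adjusted p from 1.75e-05 without the filter to 0.0441 in the fit on 2 groups, and 0.0257 with DESeq2. The remaining uncalled members lay between -0.41 (PRDX2) and 0.30 (PRDX5) on the log2 scale, among them GPX2 at -0.18 and PRDX1 at -0.13, which had fallen in WT.

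Set side by side, the log2 fold changes with Tm had the same sign in both genotypes for 30 of 33 members (90.9%, against 74.9% of all genes). The 8 members called in QRICH1 KO were also called in WT, but the matching share over all genes was not counted. The absolute log2 fold change was smaller in QRICH1 KO for 23 members (69.7%), against 59.9% of all genes. TXNRD1 had 0.70 in WT and 0.72 in QRICH1 KO. As a description across genes, which are not independent replicates, the paired values had a Pearson r of 0.98 and a Spearman rho of 0.84 over 33 members, and 0.82 and 0.79 over the 30 members that changed by less than 1 on the log2 scale in WT. Whether the response differed by genotype was tested by the interaction, and edgeR called no member and no gene at all. At an unadjusted p under 0.05 it held 1 of 33 members, CHAC1, and 774 of 11323 genes, and DESeq2 called no member either. For CHAC1 the response was smaller in QRICH1 KO by 1.18 on the log2 scale in the point estimate (-1.18, 95% interval -2.06 to -0.30), with an edgeR adjusted p of 0.538. Without the QRICH1 KO libraries numbered 3 it was -0.78 (adjusted p = 0.779). For TXNRD1 the interval of the difference ran from -0.33 to 0.39.

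**Figure D2:**
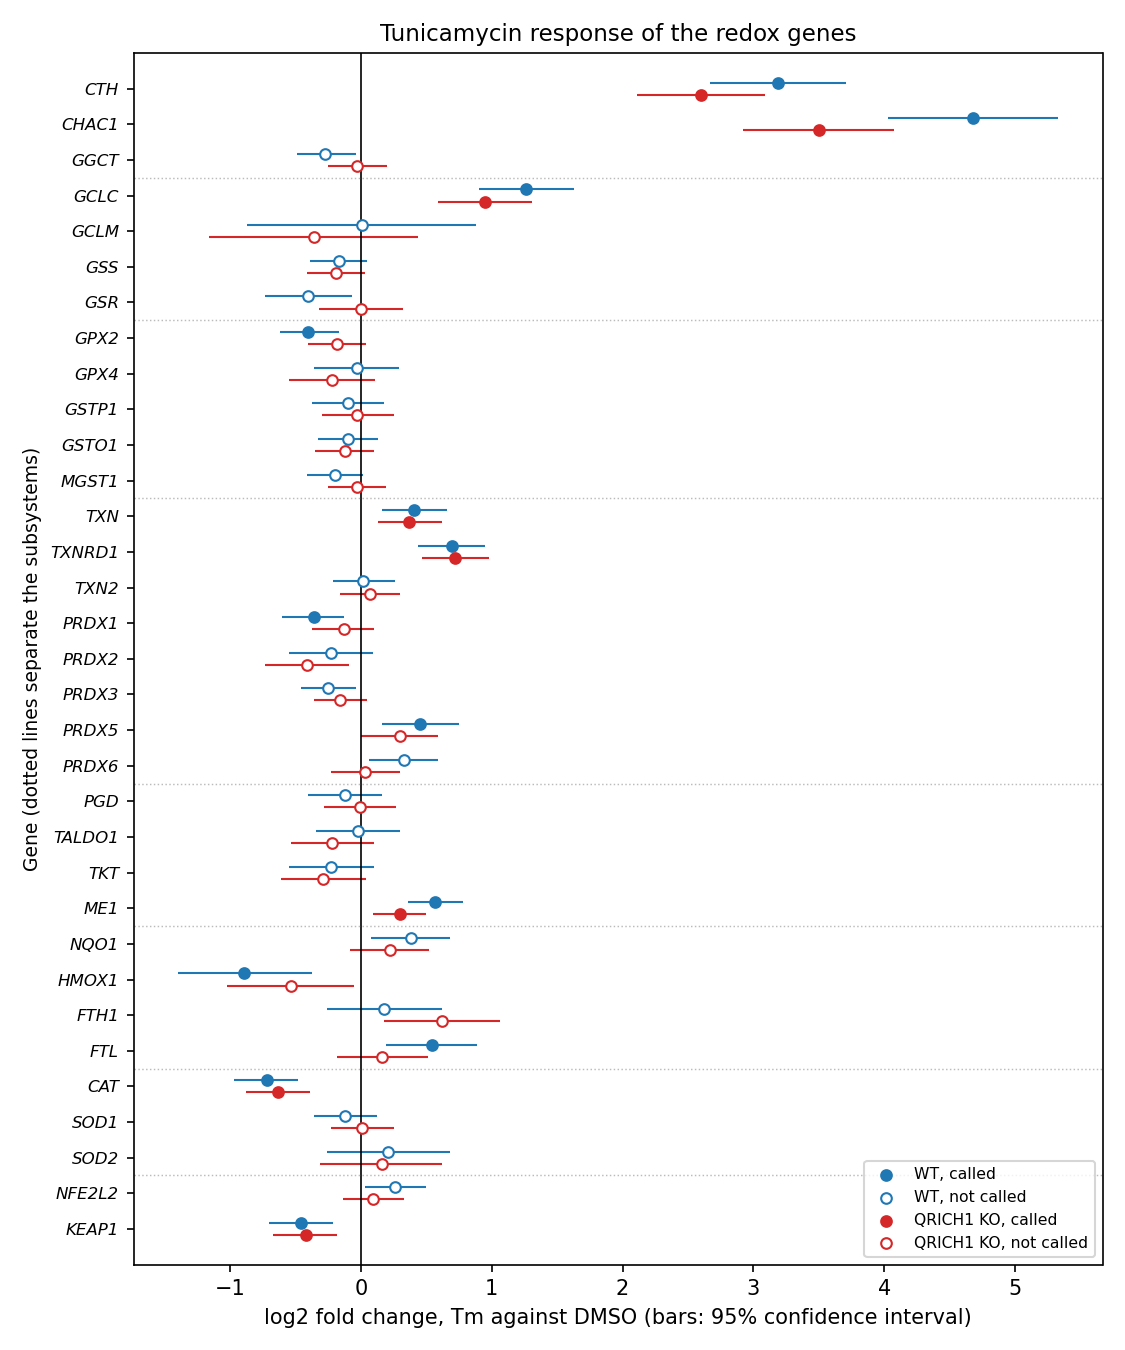
Log2 fold change of Tm against DMSO (horizontal axis) with 95% confidence interval for the 33 tested members, ordered by subsystem, in WT and in QRICH1 KO. CHAC1, CTH and GCLC have the highest values in both genotypes, 4.68, 3.19 and 1.26 in WT, and the point estimates of all other members lie within 1 log2 unit of 0.

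Compared directly between genotypes under Tm, no member was called by edgeR, where 1.17% of all genes were (0.406% higher and 0.76% lower in QRICH1 KO). The members' median log2 fold change of QRICH1 KO against WT was -0.030, beside 0.010 over all genes. At an unadjusted edgeR p under 0.05 there were 5 higher and 2 lower of 33 members, beside 768 higher and 745 lower of 11323 genes. Libraries did not overlap for 8 members (24.2%), against 18.5% of all genes. Of these 8, QRICH1 KO was higher for 6, where 9.41% of all genes were, and lower for 2, where 9.06% were. Members nearest to a call were PRDX2 and FTH1, and DESeq2 called both.

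PRDX2, a cytosolic peroxiredoxin, had 79.3, 111.5 and 92 CPM in WT Tm and 71.3, 64.7 and 52.9 CPM in QRICH1 KO Tm. All QRICH1 KO libraries were below all WT libraries (log2 -0.58, 95% interval -0.91 to -0.26, edgeR adjusted p = 0.0791). Under DMSO it had 118, 117.3 and 95.8 CPM in WT and 99.5, 78.3 and 73.1 CPM in QRICH1 KO, with a small overlap (log2 -0.40, adjusted p = 0.441). FTH1 pointed the other way under Tm, with all QRICH1 KO libraries above all WT libraries, by 0.77 on the log2 scale (interval 0.33 to 1.21, adjusted p = 0.0848). Without the QRICH1 KO libraries numbered 3, FTH1 was called (log2 0.89, edgeR adjusted p = 0.0296) and PRDX2 stood at -0.48 (adjusted p = 0.163). Exons of FTH1 overlap those of BEST1 on the opposite strand, which had 1 to 17 counts per library.

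GCLC was at 27.6 ± 4.07 CPM in WT Tm and 21.2 ± 1.51 CPM in QRICH1 KO Tm (SD, n = 3). All QRICH1 KO libraries were below all WT libraries, but the difference was not called (log2 -0.38, edgeR adjusted p = 0.339). The values of GCLM given above put all QRICH1 KO Tm libraries above all WT Tm libraries, again without a call (log2 0.88, adjusted p = 0.363). Thus the catalytic and modifier subunits had point estimates of opposite sign, neither past the threshold. CHAC1 and CTH overlapped between genotypes under Tm, with log2 fold changes of -0.26 and -0.29.

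Without tunicamycin no member differed between genotypes by edgeR, against 0.0971% of all genes (0.0177% higher and 0.0795% lower). An unadjusted edgeR p under 0.05 was found for 5 of 33 members (3 higher, 2 lower), beside 1027 of 11323 genes (591 higher, 436 lower). DESeq2 called none. Libraries did not overlap for 2 members (6.06%), ME1, which was higher in QRICH1 KO, and PRDX3, which was lower, against 13.5% of all genes (7.4% higher and 6.09% lower). GCLM had the highest value, 10.4 ± 6.6 CPM in WT and 25.1 ± 13.7 CPM in QRICH1 KO (log2 1.24, interval 0.42 to 2.07, edgeR adjusted p = 0.337). Its 3 libraries within each genotype differed by more than 3-fold. Without library 3 of QRICH1 KO DMSO, the lowest of its group for GCLM and one of the pair with counts for more genes than the rest, the difference was 1.62 on the log2 scale and was called (adjusted p = 0.0417).

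**Figure D3:**
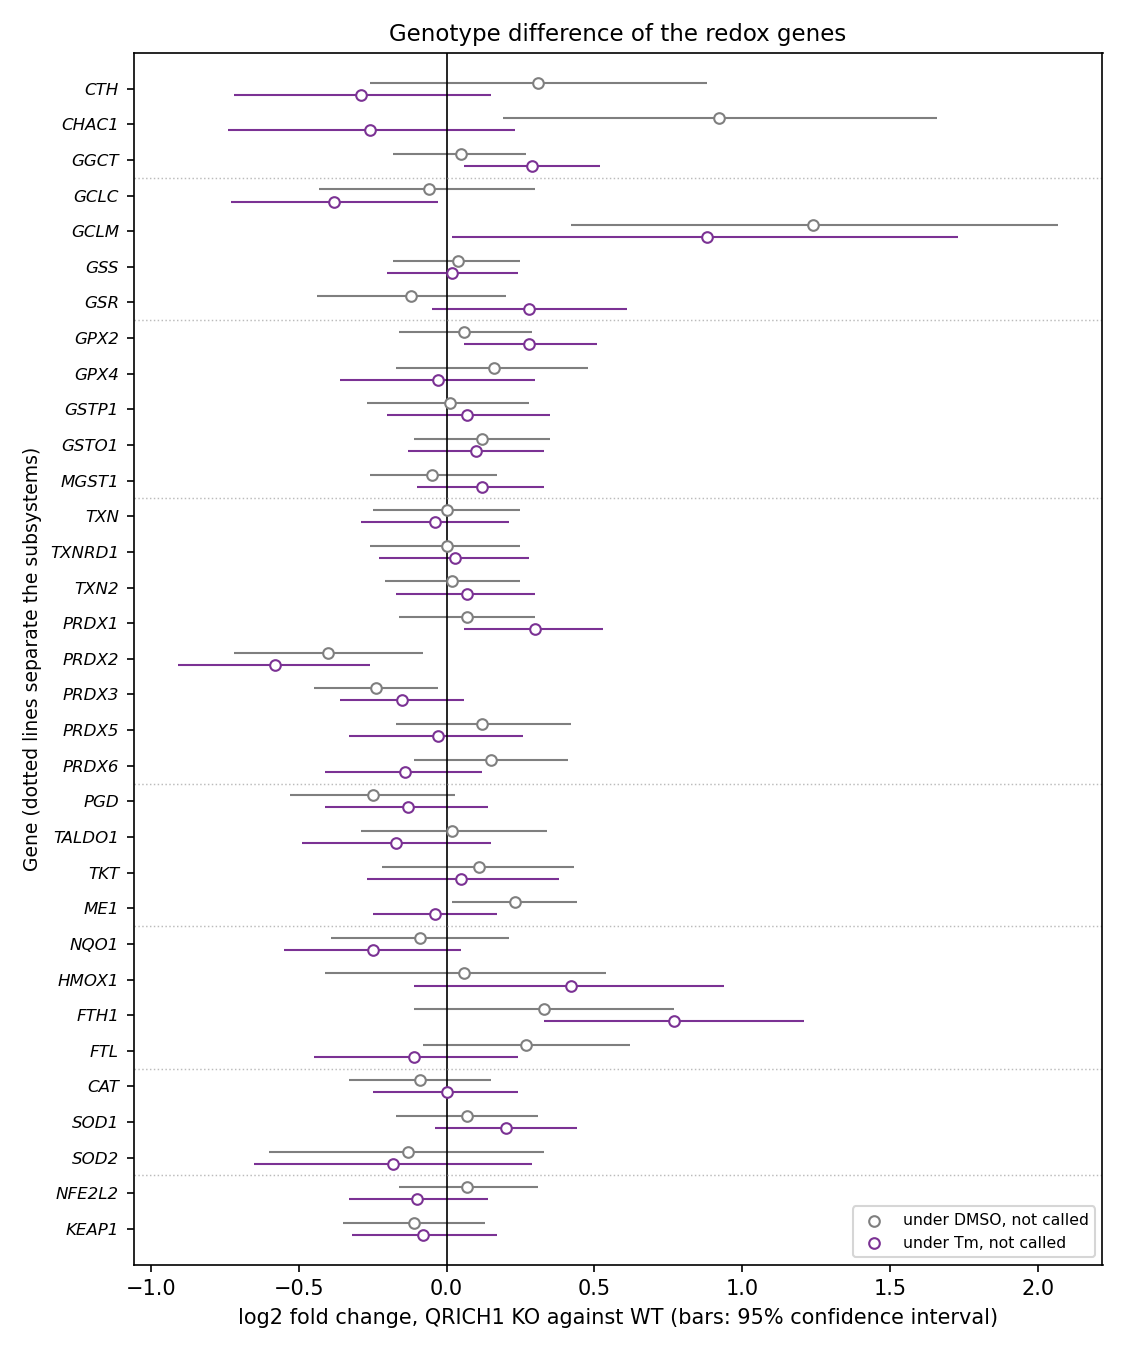
Log2 fold change of QRICH1 KO against WT (horizontal axis) with 95% confidence interval for the 33 tested members, under DMSO and under Tm. Open circles mark differences that were not called, which is every one, and GCLM, FTH1 and PRDX2 lie farthest from 0 under Tm at 0.88, 0.77 and -0.58.

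A second list held 95 further genes of the same pathways with a row in the table, of which 83 were tested. With Tm in WT, 19 of them rose (22.9%, against 12.6% of all genes) and 7 fell (8.43%, against 11.1%), with a median log2 fold change of 0.108. In QRICH1 KO 15 rose (18.1%, against 9.09%) and 5 fell (6.02%, against 6.53%), with a median of 0.028. In its group of cystine import and cysteine metabolism 2 of the 5 tested genes rose, in both genotypes. SLC7A11, the cystine-glutamate exchanger, went from 17, 8.83 and 13.2 CPM to 127.4, 97 and 129.1 CPM in WT (9.26-fold, edgeR adjusted p = 3.85e-10) and rose 5.77-fold in QRICH1 KO. Its heavy chain SLC3A2 had 483.3, 386 and 361.6 CPM in WT DMSO and 3078, 4184 and 3613 CPM in WT Tm (8.84-fold, adjusted p = 3.81e-11) and rose 4.94-fold in QRICH1 KO. In both genotypes the Tm and DMSO libraries of these genes lay far apart, as they did for CTH, so that transcripts for cystine import and for the last step of transsulfuration were both higher.

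Other genes of that list rose by several fold. Glutaredoxin GLRX, which reduces protein-glutathione disulfides, went from 4.58 ± 1.32 to 58.8 ± 2.93 CPM in WT (SD, n = 3), a 12.5-fold rise, and rose 9.46-fold in QRICH1 KO. MTHFD2, a mitochondrial folate enzyme, rose 5.36-fold in WT and 4.12-fold in QRICH1 KO. TXNIP, the inhibitor of thioredoxin, rose 3.89-fold and 3.06-fold, and UGDH, which makes UDP-glucuronate and is listed among NRF2 targets, rose 3.57-fold and 3.03-fold. UGDH belongs to a list of further genes of detoxification, haem and iron, which does not hold NRF2 targets only. Of its 19 tested genes, 6 rose and 2 fell in WT (31.6% and 10.5%, against 12.6% and 11.1% of all genes). In QRICH1 KO 5 rose and 1 fell (26.3% and 5.26%, against 9.09% and 6.53%).

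Between genotypes under Tm, 4 of the 83 were called (4.82%, against 1.17% of all genes), 1 higher and 3 lower in QRICH1 KO. GLRX had 60, 61 and 55.5 CPM in WT Tm and 24, 27.2 and 29.5 CPM in QRICH1 KO Tm, 2.19-fold lower without overlap (log2 -1.13, edgeR adjusted p = 0.00484). Under DMSO it had 3.13, 4.87 and 5.73 CPM in WT and 3.22, 3.53 and 1.75 CPM in QRICH1 KO, overlapping and not called (log2 -0.74, unadjusted p = 0.00674, edgeR adjusted p = 0.348), and the interaction was -0.40 (adjusted p = 0.852). TXNIP had 239.5, 218.9 and 216.5 CPM against 147.6, 157.6 and 129.8 CPM under Tm, 1.55-fold lower (adjusted p = 0.0118), also without overlap. Its log2 difference under DMSO was -0.29 (adjusted p = 0.498) and its interaction -0.34 (adjusted p = 0.737), neither called. GPX3, a secreted glutathione peroxidase, had 8.66, 8.29 and 7.91 CPM against 16.7, 15.3 and 13 CPM under Tm, 1.8-fold higher and close to the threshold (adjusted p = 0.0485). The GPX3 call was lost without any 1 of the 6 Tm libraries and without the QRICH1 KO libraries numbered 3 (edgeR adjusted p = 0.0593), whereas GLRX and TXNIP were still called without that pair (0.00321 and 0.0421).

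ETHE1, a mitochondrial persulfide dioxygenase that acts in the breakdown of hydrogen sulfide, was lower in QRICH1 KO in both treatments. Under DMSO it had 28.4, 28 and 32.6 CPM in WT and 13.6, 14.6 and 12.1 CPM in QRICH1 KO, 2.21-fold lower (log2 -1.14, edgeR adjusted p = 0.0052). Under Tm it had 24.8, 31 and 28.4 CPM in WT and 12, 17.9 and 11.9 CPM in QRICH1 KO, 2.03-fold lower (log2 -1.02, adjusted p = 0.00494). The genotypes did not overlap in either treatment, and ETHE1 was the only one of the 83 called under DMSO. For the interaction edgeR called none of the 83, with 7 at an unadjusted p under 0.05, beside 774 of 11323 genes. The lowest p belonged to SLC3A2 (log2 -0.84, edgeR adjusted p = 0.266), which DESeq2 called.

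**Figure D4:**
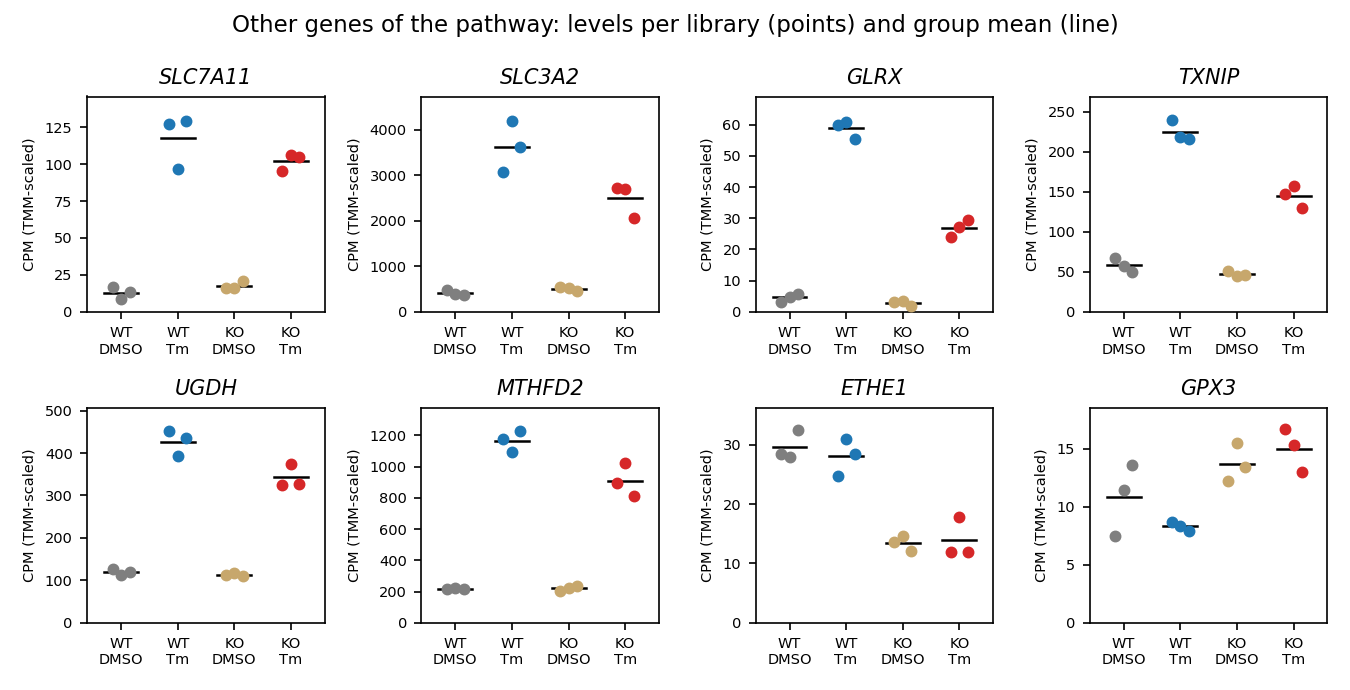
TMM-scaled CPM (vertical axes, linear) of 8 further genes of the pathway in the 12 libraries, with a line at each group mean and KO for QRICH1 KO. GLRX and TXNIP are lower in all QRICH1 KO Tm libraries than in all WT Tm libraries, and ETHE1 is lower in all QRICH1 KO libraries under both treatments.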

How the data were processed

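The authors deposited 1 table of raw read counts per gene, with 12 columns of polyadenylated-transcript libraries made, per the labels' protocols, by a modified Smart-seq2 method with Nextera XT. That chemistry marks no strand and adds no molecular identifiers, so limits from counts cover counting error only. The submitters' processing notes name STAR, Trimmomatic, DESeq2 and the build hg38. For the counting tool, its strand setting and the annotation, nothing is given in the sources used here. Versionless IDs matched GENCODE release 29 for 19972 of 20015 genes and current symbols for 19893. SOD2 has 2 IDs, and the one with more counts was used.

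The members and lists were chosen with earlier results of these data known. Counts were scaled by TMM, filtered with filterByExpr (minimum count 10) and fitted with edgeR 4.0.16 in R 4.3.3, as 4 group means over 12 libraries. Two-sided quasi-likelihood p-values were adjusted by Benjamini-Hochberg over 11323 genes, with calls at adjusted p under 0.05. Standard errors were derived from the F statistic. CPM values are TMM-scaled. The procedure was also run on simulated counts, with the same spread for all genes and changes in WT Tm only. That setting does not cover genes as variable as GCLM, and its outcome is not given here. Full values were given for the 8 members with the highest absolute log2 fold change in WT and for classical NRF2 targets and regulators, and for up to 6 called genes per comparison of the second list with a mean of at least 10 CPM. PRDX2, FTH1, PRDX1, GPX2 and TXN were added after their values were seen. No library was a copy of another (chi-square per degree of freedom 8.64 to 35.8 within groups). Alternatives were DESeq2 1.42.0, RLE factors, no filter, a fit on 2 groups, a replicate block, and leaving out each library.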

Additional observations from a re-analysis of the deposited data

How the results depend on the processing

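No called result changed sign. CHAC1, CTH, GCLC, TXNRD1 and CAT kept their Tm calls in both genotypes under every alternative that bears on them, as ETHE1 and GLRX kept their genotype calls. In WT, ME1 and KEAP1 did so too, while PRDX1 was lost in 4 of 11 alternatives, FTL and PRDX5 in 3, TXN and HMOX1 in 2 and GPX2 in 1, all by leaving out 1 library (highest adjusted p 0.167). In QRICH1 KO, KEAP1 was lost in 3 of 12. Some uncalled results were called by an alternative: with Tm in WT, NQO1 in 5 of 11, PRDX6 in 3, and GSR and GPX3 in 1 each. With Tm in QRICH1 KO these were FTH1 in 6 of 12, PRDX2 in 3 and HMOX1 in 1, and between genotypes under Tm FTH1 in 5, PRDX2 and SLC3A2 in 3 each, and GCLM, MTHFD2 and UGDH in 1 each. Between genotypes under Tm, GPX3 was lost in 8 of 12 and TXNIP in 2.

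Under Tm, the genotype comparison without any call among members by edgeR gave 1 higher (FTH1) and 1 lower (PRDX2) with DESeq2, which also called 6 lower in the second list and 289 genes in all, against 132. Without the filter there were 2 higher members (GCLM and FTH1), 1 lower (PRDX2), 2 higher in the second list and 279 genes in all. The fit on 2 groups gave 1 higher member (FTH1). With RLE factors the second list had 0 higher. Under DMSO all calls numbered 58 with DESeq2, 138 without the filter (1 higher member, GCLM, and 1 higher in the second list) and 6 in the fit on 2 groups, against 11. The interaction had 35 calls with DESeq2 and 44 without the filter, with 1 lower in the second list in each, against 0. Without the filter the second list had 11 lower with Tm in WT, against 7. Leaving out both QRICH1 KO libraries numbered 3, chosen after seeing the data, gave 1 higher member under Tm (FTH1), 0 higher in the second list, 1 higher member under DMSO (GCLM) and 59 calls under DMSO in all. The causes were not tested.

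Leaving out 1 library at a time gave 5 to 10 higher and 3 to 5 lower members with Tm in WT (15 to 20 and 4 to 8 in the second list, 2025 to 2394 genes in all), and 4 to 6 and 1 to 3 in QRICH1 KO (9 to 13 and 3 to 4, 1109 to 1769 in all). The genotype comparison had 0 members under Tm (0 higher and 2 to 3 lower in the second list, 56 to 78 in all) and 0 to 1 higher under DMSO (1 lower in the second list, 5 to 39 in all), and the interaction 0 to 4 genes in all.

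Over all groups, replicate numbers did not clearly pair the libraries: deviations from group means correlated at -0.186 to 0.265 between same-numbered libraries and at -0.241 to 0.226 between others. Within QRICH1 KO, the DMSO and Tm libraries numbered 1, 2 and 3 correlated at 0.213, 0.002 and 0.265, and the crossed pairs of numbers 1 and 3 at -0.239 and -0.237. In WT the same-numbered pairs stood at -0.139, -0.051 and 0.019. A pairing within QRICH1 KO is thus not excluded. With the replicate number as a block, members under Tm had 1 higher (FTH1) and 1 lower (PRDX2) in QRICH1 KO, and 17 genes were called between genotypes under DMSO.

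CBS and SRXN1 had too few counts to be tested, and why was not tested.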
